A study of Mus musculus with 12 samples.

Results

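The last steps of mitochondrial respiration are carried out by 3 large assemblies of the inner membrane. Complex III (cytochrome bc1) passes electrons from ubiquinol to cytochrome c, complex IV (cytochrome c oxidase) passes them on to oxygen, and both pump protons. ATP synthase lets the protons flow back through a ring of c subunits, and the rotation of its central stalk drives ATP formation in the F1 head. A few catalytic subunits are encoded in mitochondrial DNA, while most subunits are made on cytosolic ribosomes and must reach the inner membrane in fixed proportions. The genes described here were found by name, as every measured gene whose symbol began with Uqcr, Cox4 to Cox8 or Atp5. The rule gave 38 of the 11587 genes measured, with 8 for complex III, 13 for complex IV and 17 for ATP synthase. Of these, 33 encode subunits of the liver enzymes (8, 10 and 15). Cox7a1 is the heart and muscle isoform of Cox7a2, and Cox7a2l encodes a factor that joins complexes III and IV into supercomplexes. Cox4nb, Atp5s and Atp5sl carry the names but encode no subunit of these enzymes.

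Livers of 3 Maf1 KO mice and 3 wild-type mice, all C57BL/6, were compared by ribosome profiling, in which nuclease-protected mRNA fragments (footprints) and total RNA are sequenced from the same extract. MAF1 represses transcription by RNA polymerase III. The mice were 12 to 14 weeks old and refed by the labels (12 weeks and fed ad libitum by the study's methods) and were killed at 9 PM, so that both genotypes shared age, strain and feeding. Each extract also held material of Drosophila S2 cells. The values are log2 scores that appear to be per coding length and were compared between genes as such. A level here is a score minus the median of its library over all genes, and translation efficiency is a mouse's footprint score less its total RNA score, again relative to the median gene.

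The labelled tissue was borne out by its markers, 11 of 12 hepatocyte markers being measured with a summed total RNA level of 12.7 to 13.2 in Maf1 KO and 12.4 to 13.2 in wild-type livers. All 13 measured Kupffer cell and macrophage markers were higher in Maf1 KO total RNA by the fitted difference (median 0.58 on the log2 scale), 11 of them in every Maf1 KO liver against 6.92% of all genes, with a summed level of 5.80 to 6.26 in Maf1 KO and 5.31 to 5.57 in wild-type livers. Marco, a scavenger receptor of Kupffer cells, passed the test on the deposited scale (2.21, adjusted p = 4.0e-11, limma) and not after centring of the libraries (2.19, adjusted p = 0.20). On the deposited scale a gene's own spread between mice did not enter its p-value. Of 9 stellate cell and fibroblast markers, 5 were higher in total RNA of every Maf1 KO liver (median 0.32), against 6.92% of all genes. In footprints 0 of these 9 were (median 0.01, 4 below 0), against 4.83% of all genes. Of the 13 Kupffer cell and macrophage markers 1 was higher in footprints of every Maf1 KO liver (median 0.55, 0 below 0). The part of these differences in what follows was not tested, and in a bulk liver fewer cells of a type and less RNA per cell cannot be told apart. In 2 libraries the median score stood away from that of their group, total RNA of KO1 (9.34, against 8.75 and 8.83 in KO2 and KO4) and footprints of WT3 (8.02, against 7.37 and 7.48 in WT1 and WT2). The footprints of 5 mice deviated from the mean most like the total RNA of the same mouse (r = 0.25 to 0.56 over 5018 genes, which are not independent), whereas those of WT3 did so least (r = 0.13) and were closer to the total RNA of KO2 (r = 0.19). The WT3 footprints were also the highest in Cela1, a pancreatic acinar gene, which was at −1.22, −1.34 and 1.01 in Maf1 KO footprints and at −0.65, −0.26 and 4.30 in those of WT1, WT2 and WT3, and the summed level of the 2 acinar markers measured of 8 was 1.19 to 2.72 in Maf1 KO and 1.15 to 5.49 in wild-type footprints. Its part in the results was not tested, and medians, ratios and shares are also given without WT3. Low footprint scores lay near whole multiples of a step once multiplied by coding length, in 60.3% to 70.8% of genes within 0.1 of a whole number, which allowed reads to be estimated but not counted. In total RNA the share was 34.5% to 75.2%, and in WT2 and WT3 it was hardly above the share without coding length (38.8% against 30.9% in WT2, 34.5% against 30.9% in WT3), so that for total RNA the scale per length, and with it levels between genes, ratios and reads, is less sure. By that estimate, each of the 33 liver subunits had at least 386 footprint reads in every library, and only Atp5s (down to 19) and Cox7a1 (down to 31) had fewer than 100.

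The c ring is shown here in sequence because its levels turn on telling near-identical genes apart. It is built from 1 protein made by 3 genes, Atp5g1, Atp5g2 and Atp5g3, whose precursors differ while the ring subunit itself does not. The stretches below are the first 30 codons of the ring subunit in the reference coding sequences (NCBIM37, GENCODE vM1), 5′ to 3′, and the capitals mark the 22 positions at which the 3 genes are not all alike. The genes lie at chr11:95930166-95936984 (Atp5g1), chr15:102493299-102501478 (Atp5g2) and chr2:73746504-73749383 (Atp5g3), all on the minus strand.
Atp5g1: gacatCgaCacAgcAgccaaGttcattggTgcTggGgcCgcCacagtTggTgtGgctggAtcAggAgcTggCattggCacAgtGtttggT
Atp5g2: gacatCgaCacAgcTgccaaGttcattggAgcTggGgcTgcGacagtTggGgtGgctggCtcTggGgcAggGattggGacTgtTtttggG
Atp5g3: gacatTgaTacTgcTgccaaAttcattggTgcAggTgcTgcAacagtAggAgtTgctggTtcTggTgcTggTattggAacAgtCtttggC

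Over all 75 codons of the ring subunit the 3 genes encoded the same 75 residues, yet Atp5g1 and Atp5g2 shared 191 of 225 bases, Atp5g1 and Atp5g3 180, and Atp5g2 and Atp5g3 177. The longest run shared at the same position was 20, 11 and 8 bases, so that a 28-base tag from this region differed between the genes. Other copies in the genome are a separate matter. Every 28-base word of the coding sequence was found again outside the gene in NCBIM37 for Atp5g1, Atp5g2, Atp5l and Cox7c (100%), and none for Atp5g3. The search took exact matches only. Over the 38 genes the share of such words had a median of 28.3%, was 0 in 11 genes and exceeded 50% in 11. It was 91.9% for Uqcrb, 86.3% for Atp5h, 63.8% for Cox7a2l and 63.6% for Atp5f1. No source used here says how tags with several matches were counted, so levels of these genes are uncertain, and the part of such copies in the differences below was not tested.

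The subunit mRNAs were among the most abundant of the liver. The median member lay at the 96.8th percentile of total RNA in complex III, the 96.3rd in complex IV and the 96.7th in ATP synthase, and at the 97.5th, 97.5th and 95.9th percentile of footprints. Atp5a1, the alpha subunit of the F1 head, had the highest total RNA level of all 38 (6.15, mean of 6 livers), and Cox4i1, the large regulatory subunit of complex IV in most tissues, the highest footprint level (7.17). Among the liver subunits Atp5g2 was the lowest in both (1.22 and 2.65). Cox7a1 (total RNA −2.10) and Atp5s (−1.70) were far below the median gene.

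No member passed an adjusted p of 0.05 between genotypes in any of the 3 measures (limma, Benjamini-Hochberg over all genes, on the deposited scale or after centring each library). On the deposited scale the share of all genes that passed was 0.276% for total RNA, 0.0863% for footprints and 0.0173% for translation efficiency. After centring, 2 genes passed in total RNA and 0 in the other measures, where 223 lower and 241 higher footprint genes and 203 lower and 145 higher translation efficiency genes had an unadjusted p under 0.05 (limma). In total RNA 438 lower and 545 higher genes did. Of the members, 5 had an unadjusted p under 0.05 in total RNA (4 lower, 1 higher), 4 in footprints (all lower) and 2 in translation efficiency (1 lower, 1 higher). The differences below are given on the centred scale as measured values with their standard errors (SE), none of them past the threshold after adjustment. The median SE of a member came to 0.13 (total RNA), 0.20 (footprints) and 0.24 (translation efficiency).

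In total RNA the 3 complexes gave like values. The median difference, Maf1 KO minus wild-type, was −0.17 in complex III, −0.17 in complex IV and −0.15 in ATP synthase, against −0.02 over all genes, and 34 of 38 members were below 0, against 53.4% of all genes. In 9 of 38 members every Maf1 KO liver was below every wild-type liver, against 7.03% of all genes, and in 0 members above, against 6.92%. The median of complexes III and IV corresponds to 0.889 of the wild-type level. It depended on the scaling, since quantile normalization gave medians of −0.08, −0.09 and −0.08. Without WT3 they were −0.12, −0.15 and −0.14. The median level over the 38 genes was 4.32, 4.26 and 4.34 in KO1, KO2 and KO4, against 4.45, 4.51 and 4.55 in WT1, WT2 and WT3, without overlap. Taken by complex, the groups were apart for the 13 complex IV genes but overlapped for its 10 subunits, for complex III and for ATP synthase. Over the 33 liver subunits alone the median level was 4.45, 4.46 and 4.598 in KO1, KO2 and KO4, against 4.497, 4.65 and 4.602 in WT1, WT2 and WT3, and overlapped.

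Uqcrfs1, the Rieske iron-sulfur protein that takes electrons from ubiquinol, had total RNA levels of 3.86, 3.79 and 3.77 in KO1, KO2 and KO4, against 4.10, 3.96 and 4.21 in WT1, WT2 and WT3. The groups did not overlap, and the difference was −0.28 (SE 0.11, adjusted p = 0.56, limma). Uqcrc2, one of the core proteins of complex III, had levels of 3.64, 3.52 and 3.53 in Maf1 KO livers, against 3.83, 3.74 and 3.90 in the wild type, a difference of −0.26 (SE 0.11). In complex IV, Cox7a2 had 4.15, 4.18 and 3.998 in Maf1 KO livers, against 4.26, 4.39 and 4.30 in the wild type, also without overlap (−0.21, SE 0.11). In ATP synthase, Atp5l, subunit g of the membrane part, had 2.29, 2.48 and 2.33 in Maf1 KO livers, against 2.57, 2.66 and 2.66 in the wild type (−0.26, SE 0.11). Atp5b, the catalytic beta subunit, had 5.87, 5.78 and 5.85 in Maf1 KO livers, against 6.05, 6.00 and 6.21 in the wild type (−0.25, SE 0.13). Other subunits of the same kinds overlapped, among them Atp5a1, Atp5k, the 3 c ring genes and Uqcrc1, the other core protein, with 4.36, 4.16 and 4.19 in Maf1 KO livers and 4.45, 4.29 and 4.54 in wild-type livers. The remaining members without overlap were Atp5f1 and Atp5j2 among ATP synthase subunits, Cox7a2l, and Atp5s, which is no subunit and had −1.81, −2.39 and −1.79 in Maf1 KO livers, against −1.65, −1.38 and −1.19 in the wild type.

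**Figure D1:**
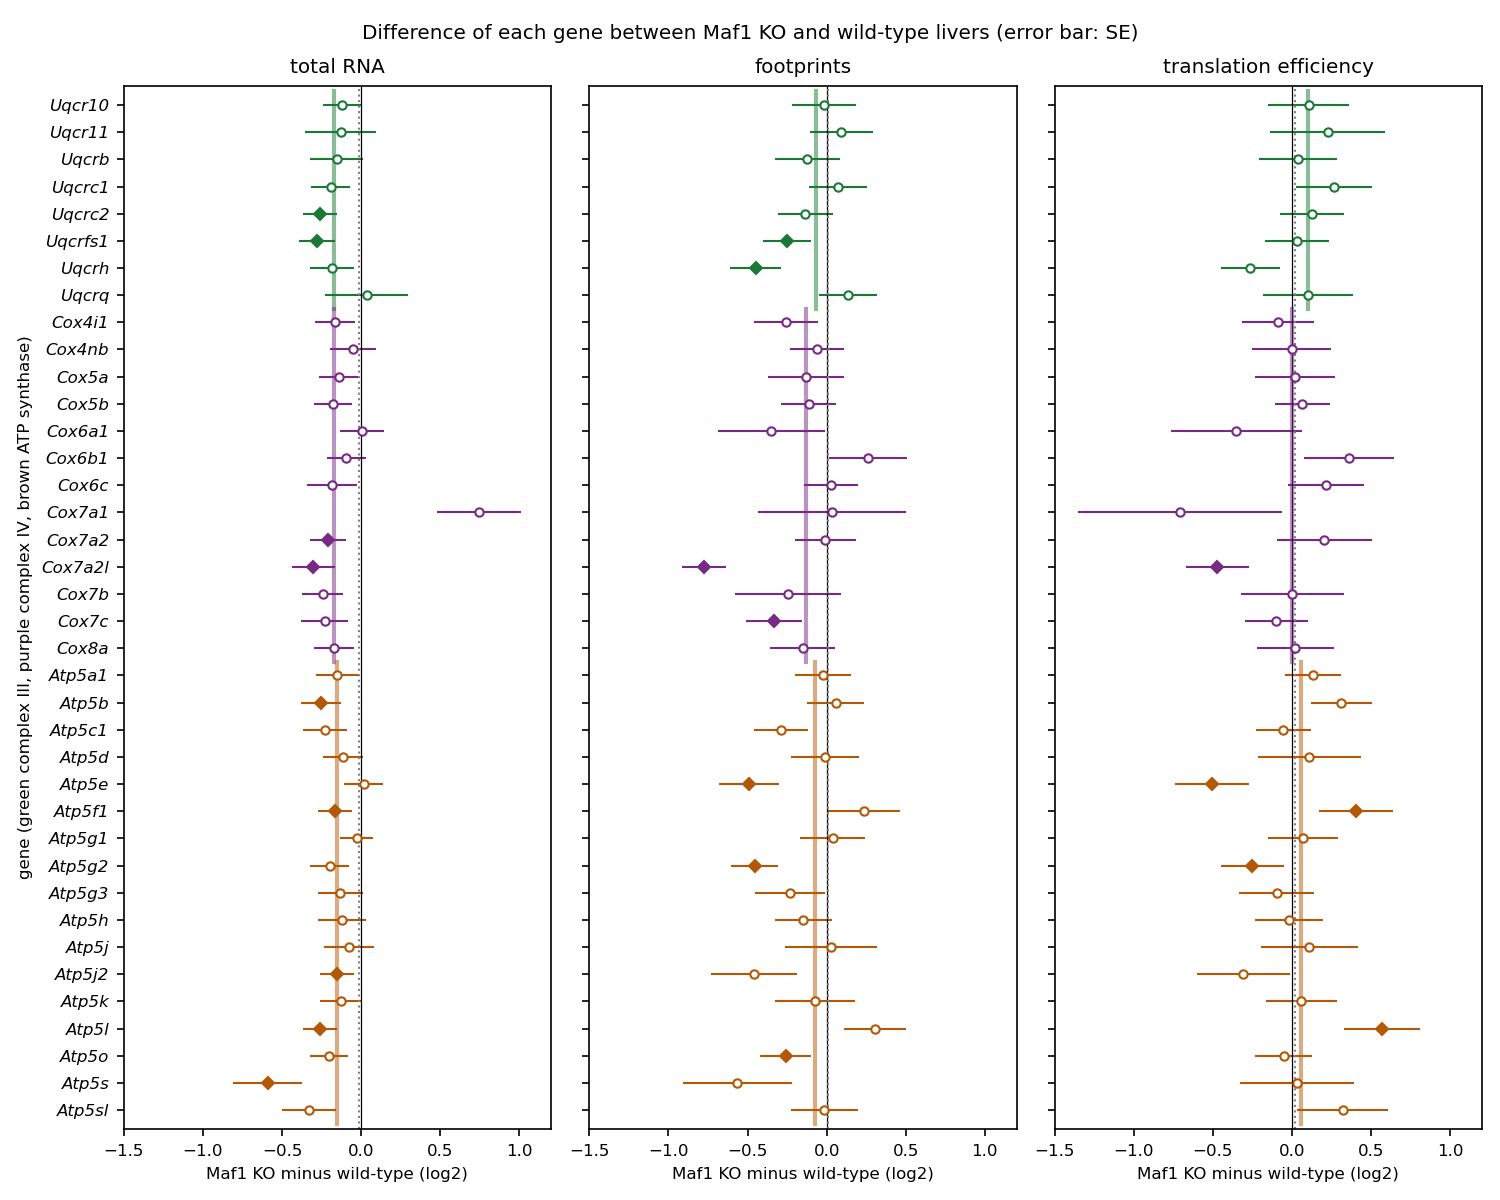
Maf1 KO minus wild-type difference (log2, libraries centred, bars SE) of each of the 38 genes in total RNA, footprints and translation efficiency, with filled diamonds where the 3 Maf1 KO and 3 wild-type livers did not overlap, coloured bars for the median of each complex and a dotted line for all genes. The total RNA medians of the 3 complexes lie between −0.17 and −0.15, and Cox7a2l has the lowest footprint difference (−0.78).

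Cox7a1 went the other way in total RNA, at −2.14, −1.54 and −1.51 in Maf1 KO livers, against −2.93, −2.08 and −2.41 in the wild type. The difference was 0.74 (SE 0.26), the groups overlapped, and it rested on an estimated 9 to 21 reads in a library. The 9 belong to WT3, where the estimate of total RNA reads is least sure. Of 12 muscle markers only Acta1 was measured, with −0.83, −0.66 and −1.09 in Maf1 KO livers and −0.97, −0.82 and −1.11 in wild-type livers, and of 7 adipocyte markers only Fabp4. Cox7a2, the isoform of liver, was 45.6- to 77.9-fold more abundant than Cox7a1 in Maf1 KO total RNA and 88.9- to 146-fold in wild-type total RNA.

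In footprints the median difference was −0.07 in complex III, −0.13 in complex IV and −0.07 in ATP synthase, against 0.01 over all genes, and 27 of 38 members were below 0, against 48.8% of all genes. Scaling moved them, to −0.26, −0.32 and −0.26 on the deposited scale (all genes −0.18) and to −0.03, −0.10 and −0.01 by quantile normalization. Without WT3 the medians were 0.0037, −0.05 and −0.07, and without WT1 −0.23, −0.16 and −0.19. In 7 members every Maf1 KO liver was below every wild-type liver, against 4.26% of all genes, and in 0 above, against 4.83%. Of these 7, Uqcrfs1 and Cox7a2l were without overlap in total RNA too.

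Cox7a2l, the supercomplex factor, of which C57BL/6 mice are known to carry a short form, had the smallest p of all 38 genes in footprints. Its footprint level was 1.55, 1.58 and 1.49 in KO1, KO2 and KO4, against 2.33, 2.33 and 2.29 in WT1, WT2 and WT3. Maf1 KO livers thus held 0.584 of the wild-type level, a difference of −0.78 (SE 0.14, unadjusted p = 0.00033, limma). It ranked 6th of 11587 genes by p, yet its adjusted p was 0.51, and with each mouse left out in turn the difference stayed between −0.80 and −0.75. In total RNA it had 1.72, 1.31 and 1.70 in Maf1 KO livers, against 1.97, 1.78 and 1.89 in the wild type (−0.30, SE 0.14). That difference lay between −0.37 and −0.17 with each mouse left out, and was smallest without KO2. Its translation efficiency was −0.33, 0.13 and −0.35, against 0.21, 0.42 and 0.24 (−0.47, SE 0.20). On the deposited scale the footprint difference was −0.96 (SE 0.35).

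Among small subunits, Atp5e, the epsilon subunit of the central stalk, had footprint levels of 6.53, 6.92 and 6.96 in Maf1 KO livers, against 7.31, 7.20 and 7.38 in the wild type (−0.49, SE 0.19). Its total RNA overlapped, at 5.37, 5.44 and 5.39 in Maf1 KO livers and 5.25, 5.47 and 5.44 in wild-type livers, so that its translation efficiency was 1.00, 1.34 and 1.43 in Maf1 KO livers, against 1.91, 1.60 and 1.77 in the wild type (−0.51, SE 0.23). Uqcrh, the hinge protein beside cytochrome c1, had footprints of 6.04, 5.85 and 5.90 in Maf1 KO livers, against 6.28, 6.42 and 6.44 in the wild type (−0.45, SE 0.16). Atp5g2 had 2.32, 2.36 and 2.58 in Maf1 KO livers, against 2.85, 2.87 and 2.91 in the wild type (−0.45, SE 0.15). Cox7c, a small subunit of complex IV, had 4.49, 4.19 and 4.55 in Maf1 KO livers, against 4.56, 4.68 and 4.99 in the wild type, so that the groups barely cleared each other (−0.33, SE 0.18, and −0.21 without WT3). For Atp5e, Uqcrh, Atp5g2 and Uqcrfs1 the value without WT3 was between −0.45 (Atp5e) and −0.26 (Uqcrfs1). Uqcrfs1 footprints were 4.89, 4.96 and 4.95 in Maf1 KO livers, against 5.07, 5.31 and 5.18 in the wild type (−0.25, SE 0.15), close to its difference in total RNA. The seventh was Atp5o, the OSCP subunit that ties the head to the peripheral stalk.

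**Figure D2:**
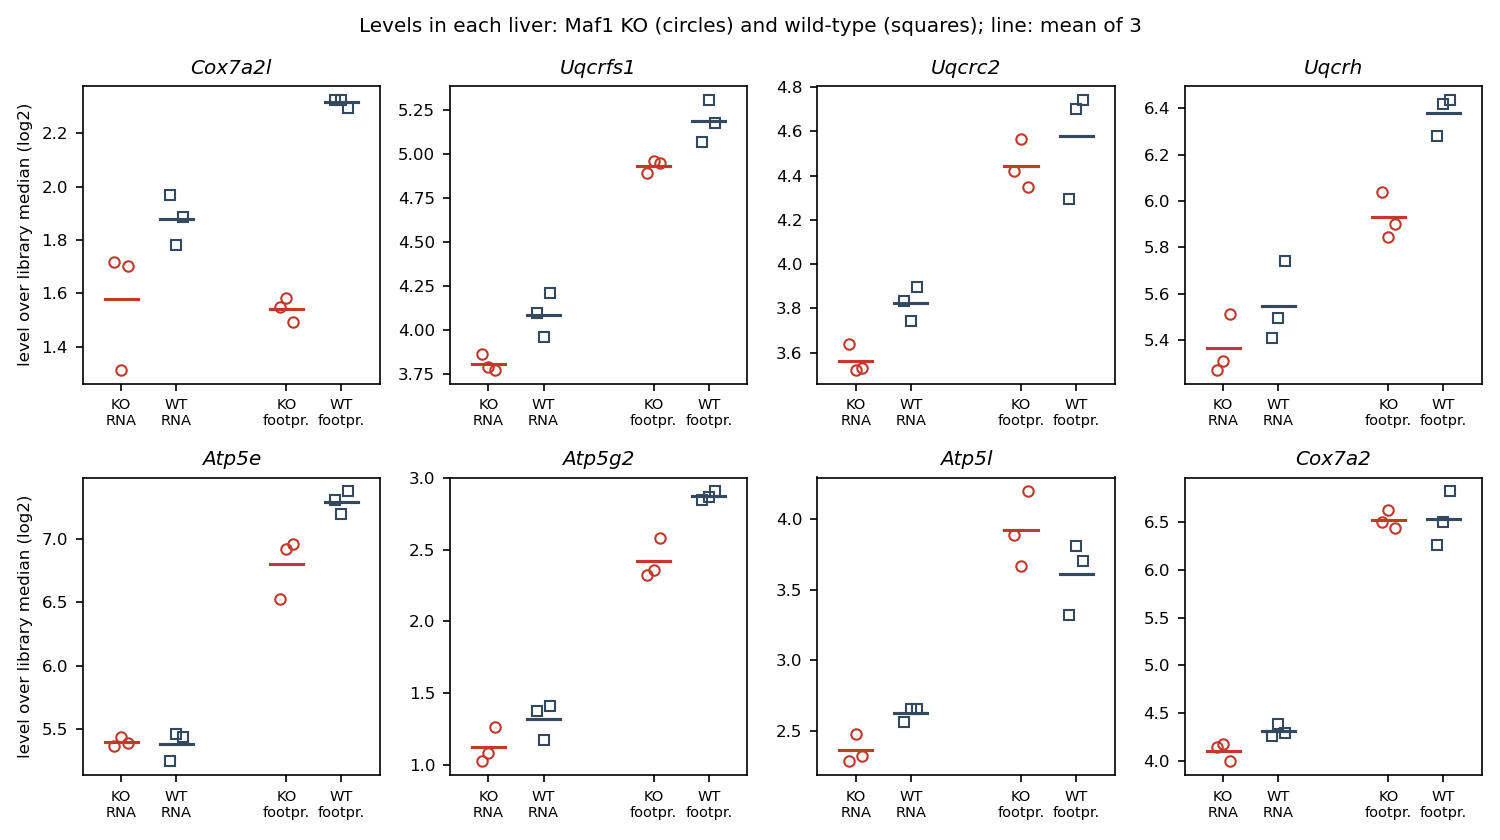
Levels over the library median (log2) of 8 genes in each liver, with Maf1 KO as circles left of wild-type squares, total RNA on the left and footprints on the right of each panel, and lines at the mean of 3. Cox7a2l footprints lie at 1.49 to 1.58 in Maf1 KO and 2.29 to 2.33 in wild-type livers, and the groups of Atp5e are apart in footprints and overlap in total RNA.

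In translation efficiency single members lay on both sides of 0. The median difference was 0.10 in complex III, 0.00 in complex IV and 0.06 in ATP synthase, against 0.02 over all genes. It was 0.09, 0.07 and 0.08 without WT3, and leaving out WT1 turned the first and the third to −0.01 and −0.08. Of 38 members 15 were below 0, against 46.5% of all genes, and of the 8 in complex III 1 was. The median level over the 38 genes was 0.86, 0.96 and 1.02 in KO1, KO2 and KO4, against 0.72, 0.81 and 0.77 in WT1, WT2 and WT3, without overlap. By complex the groups were apart for the 17 ATP synthase genes but overlapped for its 15 subunits, for complex III and for complex IV. Over the 33 liver subunits the median level overlapped (0.89 to 1.03 in Maf1 KO livers, 0.73 to 0.99 in wild-type livers). In 3 members (Cox7a2l, Atp5e and Atp5g2) every Maf1 KO liver was below every wild-type liver, against 3.56% of all genes, and in 2 (Atp5l and Atp5f1) above, against 3.8%. Atp5l had 1.44, 1.05 and 1.73 in Maf1 KO livers, against 0.61, 1.03 and 0.88 in the wild type (0.57, SE 0.24). Its lower total RNA was accompanied by footprints that overlapped, at 3.89, 3.67 and 4.20 in Maf1 KO livers and 3.32, 3.81 and 3.70 in wild-type livers. In complex III the smallest p belonged to Uqcrh (0.61, 0.39 and 0.25 in Maf1 KO livers, against 0.73, 0.79 and 0.53 in the wild type) and Uqcrc1 (0.75, 1.03 and 1.32, against 0.91, 0.99 and 0.40), whose difference of 0.27 was 0.08 without WT3. Both overlapped between genotypes, as did Cox6b1 of complex IV (1.04, 1.05 and 1.66 in Maf1 KO livers, against 1.31, 0.44 and 0.92 in the wild type). On the deposited scale, where the library medians enter, the medians were −0.11, −0.21 and −0.15, against −0.19 over all genes.

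Most of these mRNAs had a higher translation efficiency than the median gene in both genotypes. This compares footprint density with mRNA level, and is not a number of ribosomes on each mRNA molecule, which also depends on coding length. Tested over the 6 livers against the median gene, 32 of 38 members were above it (adjusted p under 0.05, limma), against 37.3% of all genes. Below it was 1 member, against 37.7% of all genes. The median was 0.93 in complex III, 1.14 in complex IV and 0.69 in ATP synthase, that is 1.91-, 2.20- and 1.61-fold the median gene. The values went with coding length, and the part of the less sure total RNA scale in this was not tested. Genes with a coding length up to 450 bases had a median of 0.74 and longer genes −0.02, and 24 members were in the shorter class (median 1.10), with 14 in the longer one (0.68). Against genes of like coding length, 22 members were above, against 34.8% of all genes, and 7 below, against 35.1%, and the medians were 0.54, 0.48 and 0.27. Without WT3 these counts were 20 and 6.

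In complex III, Uqcr11, a small subunit at the edge of the complex, had the highest translation efficiency, at 1.01, 1.996 and 2.17 in Maf1 KO livers and 1.17, 1.95 and 1.38 in wild-type livers. Uqcrb, the ubiquinone-binding protein, had the lowest of all 38, at −0.04, −0.80 and −0.76 in Maf1 KO livers and −0.62, −0.66 and −0.43 in wild-type livers. It was the 1 member past the threshold below the median gene (−0.55, SE 0.12, adjusted p = 0.0030, limma), that is 0.682-fold the median gene. Against genes of like length it was at −1.31. Its total RNA level (4.65) was above that of Uqcrc1 (4.33), while its footprint level (4.24) was the lowest of complex III.

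In complex IV, Cox6a1 had the highest translation efficiency of all 38, at 1.53, 1.91 and 2.83 in Maf1 KO livers and 2.74, 2.51 and 2.08 in wild-type livers (mean 2.27, SE 0.21, 4.81-fold the median gene). Cox7a2 followed with 2.19, 2.30 and 2.30 in Maf1 KO livers and 1.86, 1.98 and 2.36 in wild-type livers. Cox7b was the lowest, at 0.34, −0.37 and −0.27 in Maf1 KO livers and −0.73, −0.03 and 0.47 in wild-type livers, and was at −0.90 against genes of like length, where Cox7a2l was at −0.63. Cox4i1 had 1.10, 0.99 and 1.38 in Maf1 KO livers and 1.40, 1.39 and 0.94 in wild-type livers, and Cox8a had 1.13, 1.33 and 1.495 in Maf1 KO livers and 1.19, 1.03 and 1.67 in wild-type livers. Subunits of the one complex thus lay far apart, in both genotypes. Cox7c and Uqcrh were above the median gene (0.27 and 0.55) and below genes of like length (−0.58 for Cox7c, past the threshold, and −0.21 for Uqcrh, not past it). The call of Cox7c against the median gene was lost without KO1, KO2, WT2 or WT3 (0.22 to 0.29).

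In ATP synthase, Atp5d, the delta subunit of the central stalk, was the highest, at 1.74, 1.49 and 2.51 in Maf1 KO livers and 1.93, 1.64 and 1.84 in wild-type livers. Atp5k, subunit e, which lies where the enzymes pair into dimers, was the lowest, at 0.16, −0.35 and 0.24 in Maf1 KO livers and −0.29, −0.01 and 0.17 in wild-type livers, and was at −0.84 against genes of like length. Atp5h passed the threshold above the median gene (0.29) and below genes of like length (−0.31, and −0.24 without WT3, not past it). Atp5j was at 0.19, not past it, and at −0.58 against genes of like length, past it. The share of coding words found elsewhere in the genome was 35.3% for Cox6a1, 28.9% for Cox7a2, 0% for Atp5d, 61.1% for Uqcr11, 91.9% for Uqcrb, 40.3% for Cox7b and 48.7% for Atp5k, and its part in these values was not tested.

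**Figure D3:**
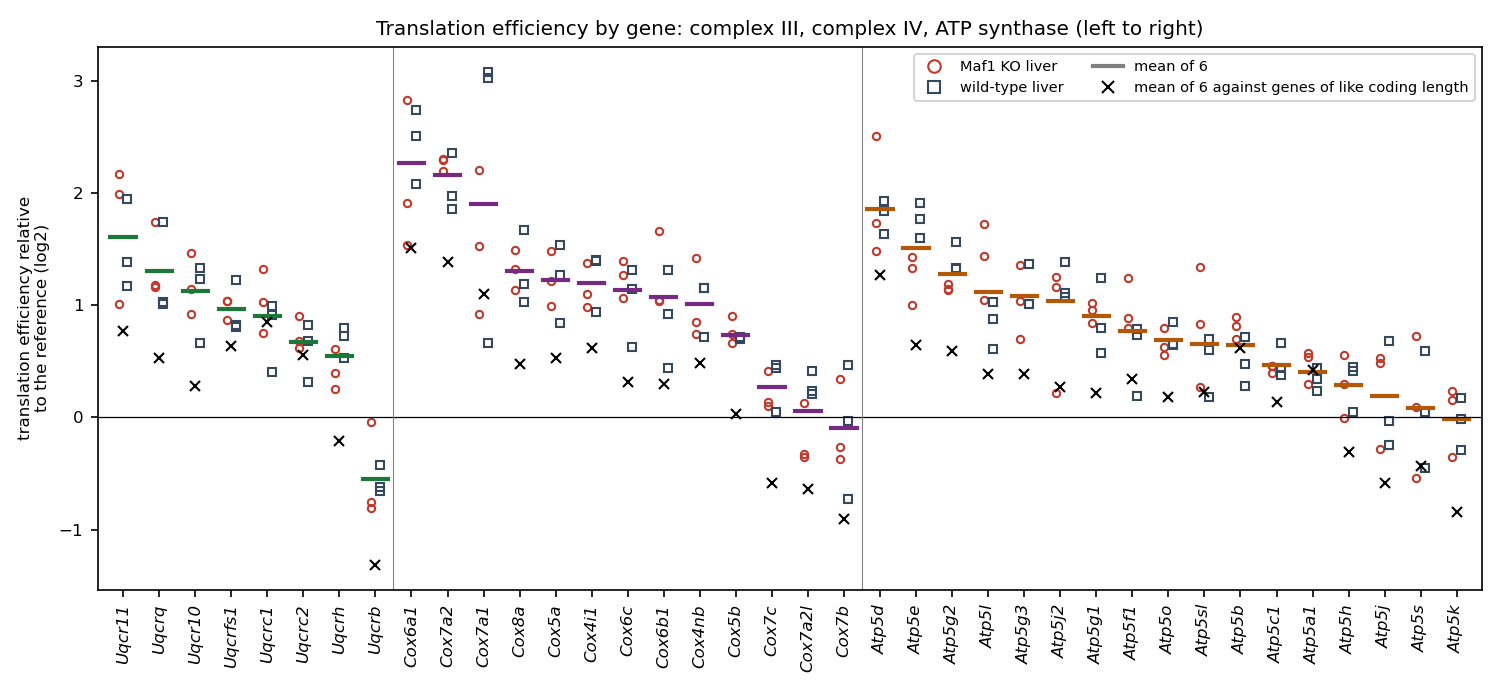
Translation efficiency relative to the median gene (log2) for the genes of complex III, complex IV and ATP synthase, with Maf1 KO livers as circles, wild-type livers as squares, bars for the mean of 6 and crosses for the mean against genes of like coding length. Members run between 2.27 (Cox6a1) and −0.55 (Uqcrb), and most lie above 0.

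Within a complex the subunits are needed in fixed numbers, and for ATP synthase these differ between subunits, with 3 alpha and 3 beta, 8 c and 1 of each other subunit here. Taking the gamma subunit of the rotating stalk (Atp5c1) as 1, footprint density of alpha was 3.34, 3.88 and 2.46 in KO1, KO2 and KO4, against 2.96, 2.36 and 2.64 in WT1, WT2 and WT3. That of beta was 3.08, 4.09 and 3.04 in Maf1 KO livers, against 2.44, 2.80 and 2.74 in the wild type. Both thus lay around the 3 copies in the enzyme. Gamma itself had footprint levels of 5.11, 4.78 and 5.20 in Maf1 KO livers, against 5.19, 5.36 and 5.39 in the wild type (−0.29, SE 0.17). Differences between genotypes in these ratios thus include that of gamma. The footprint level of beta itself overlapped between genotypes (0.06, SE 0.18). The peripheral stalk, which holds the head in place, lay near its 1 copy, with means of 1.09 ± 0.39 and 0.74 ± 0.14 for subunit b (Atp5f1), 0.94 ± 0.03 and 0.85 ± 0.07 for d (Atp5h), 1.04 ± 0.38 and 0.83 ± 0.27 for F6 (Atp5j) and 0.83 ± 0.05 and 0.81 ± 0.02 for OSCP (Atp5o), in Maf1 KO and wild-type livers (SD, n = 3 each).

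Of the remaining subunits, e (Atp5k) was near its 1 copy (1.08 ± 0.17 in Maf1 KO and 0.94 ± 0.16 in the wild type, SD, n = 3 each), and f (Atp5j2) was above it (1.40 ± 0.32 and 1.55 ± 0.11). The others were farther from theirs. Epsilon (Atp5e) had 3.49 ± 0.86 in Maf1 KO and 3.95 ± 0.38 in the wild type, and delta (Atp5d) 2.08 ± 0.31 and 1.72 ± 0.27, both for 1 copy (SD, n = 3 each). The 3 c ring genes together had 4.04 ± 0.79 in Maf1 KO and 3.76 ± 0.60 in the wild type for 8 copies. Subunit g (Atp5l) had 0.46 ± 0.04 and 0.31 ± 0.03. Without WT3 the wild-type mean was 2.66 for alpha, 2.62 for beta, 0.68 for F6, 3.95 for epsilon and 3.42 for the c ring. Of these, Atp5l and 2 of the c ring genes have all their coding words elsewhere in the genome, and values for epsilon, with a coding length of 159 bases, rest on few positions. In total RNA, where ratios are less sure, alpha was at 3.12 ± 0.33 and 2.94 ± 0.03 in Maf1 KO and wild-type livers. Beta was at 2.63 ± 0.26 and 2.66 ± 0.09, so that mRNA of alpha and beta was close to the same proportions. The c ring sum was at 2.67 ± 0.32 and 2.47 ± 0.31 for 8 copies, and delta at 0.76 ± 0.16 and 0.69 ± 0.11. Means of the subunits of 1 copy ran between 0.24 (g) and 1.95 (epsilon in Maf1 KO).

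**Figure D4:**
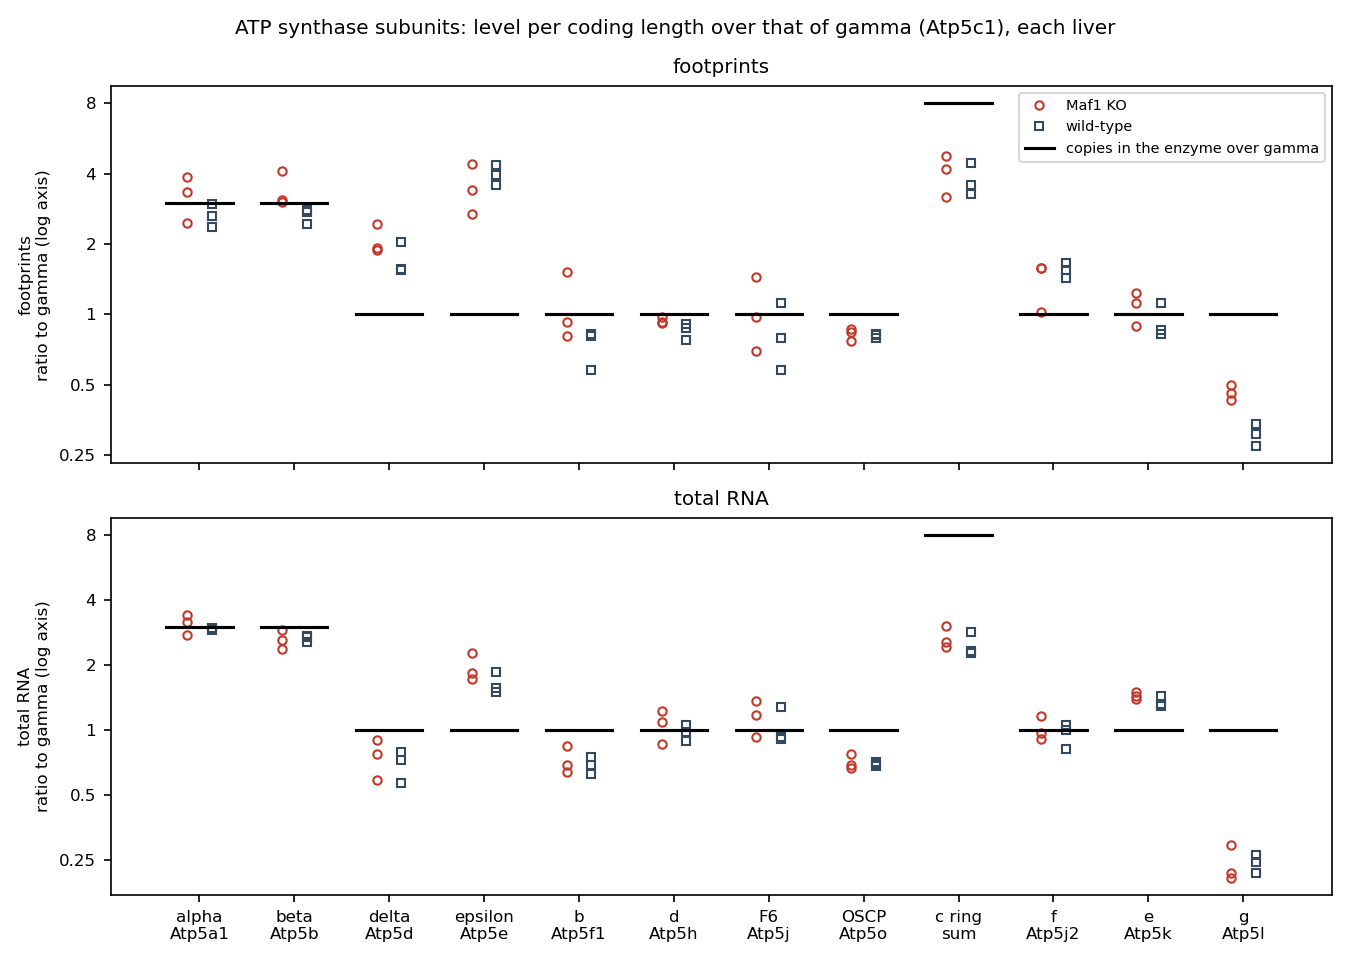
Level per coding length of ATP synthase subunits over that of gamma (Atp5c1) in each liver, footprints above and total RNA below on a log axis, with Maf1 KO as circles left of wild-type squares and black lines for the copies in the enzyme. Alpha and beta lie around 3 in both, epsilon and delta footprints above 1, and the c ring sum below 8.

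Over the subunits of complexes III and IV the levels were more spread in footprints than in total RNA, as were those of all genes (SD 2.58 and 2.14). The SD over the 8 subunits of complex III was 0.85 in footprints and 0.59 in total RNA (log2, mean of 6 livers), and over the 10 subunits of complex IV 0.96 and 0.64, being larger in footprints in each of the 6 livers in both complexes. Without WT3 the SD in footprints was 0.87 in complex III and 1.01 in complex IV. Over the 15 ATP synthase genes, which differ in copy number, it was 1.23 and 1.29. The core proteins of complex III, present in equal number, had footprints in a ratio Uqcrc1 to Uqcrc2 of 1.98 ± 0.41 in Maf1 KO and 1.75 ± 0.52 in the wild type, and beta to alpha gave 1.07 ± 0.16 and 1.02 ± 0.18 (SD, n = 3 each). Without WT3 the wild-type means were 1.98 and 1.00.

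The c ring came mostly from Atp5g3, which gave 80.1%, 76.4% and 72.9% of c ring footprints in Maf1 KO livers, against 77.3%, 80.1% and 78.2% in the wild type. Atp5g1 gave 16.5%, 19.6% and 22.0% in Maf1 KO livers, against 16.7%, 14.9% and 17.7% in the wild type, and Atp5g2 3.46%, 3.94% and 5.14%, against 6.02%, 4.97% and 4.03%. The shares overlapped between genotypes for all 3 genes, and without WT3 the wild-type means were 78.7% (Atp5g3), 15.8% (Atp5g1) and 5.50% (Atp5g2). Atp5g3 footprint levels were 6.86, 6.64 and 6.41 in Maf1 KO livers and 6.53, 6.88 and 7.19 in wild-type livers, and those of Atp5g1 4.58, 4.68 and 4.68 in Maf1 KO livers and 4.32, 4.45 and 5.05 in wild-type livers. Atp5g3 is the one of the 3 with no coding word elsewhere in the genome, and the part of this in its share was not tested.

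Other parts of the respiratory chain were mostly below 0 in total RNA. Complex I, the entry point for NADH, had 34 of 36 subunits below 0 in total RNA (median −0.15), against 53.4% of all genes, with 9 below in every Maf1 KO liver, against 7.03%, and a median of −0.09 in footprints and 0.07 in translation efficiency. All 4 subunits of complex II were below 0 in total RNA (median −0.23), while their median was 0.0038 in footprints and 0.25 in translation efficiency, with all 4 above 0 in the last. Cyc1, cytochrome c1 of complex III, had a total RNA difference of −0.18, with 0.09 for footprints and 0.27 for translation efficiency. In neither list did a gene pass the threshold, and 32 complex I subunits had a translation efficiency above the median gene (median 0.79), against 37.3% of all genes. Assembly factors of complex IV, 18 of 25 measured, had medians of −0.17 in total RNA and −0.12 in footprints. Of 5 assembly factors of complex III measured, out of 8, 4 were below 0 in total RNA (median −0.17). The fifth, Lyrm7, which hands on the Rieske protein, passed on the deposited scale in total RNA (1.19, adjusted p = 0.022), with levels of −0.63, −1.26 and −0.0032 in Maf1 KO livers, against −1.61, −2.27 and −1.52 in the wild type, and did not pass with libraries centred (adjusted p = 0.39). Ndufa4, a complex IV subunit outside the name rule, was at −0.03 in total RNA, against −0.02 over all genes. Of 3 ATP synthase subunit and inhibitor genes measured outside the rule, 2 were below 0 (median −0.14). Of 4 measured genes for cytochrome c and carriers, 3 were (median −0.29). The 12 regulators of mitochondrial biogenesis had a median of 0.00 in total RNA and 0.01 in footprints.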

How the data were processed

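Footprint and total RNA libraries of 6 livers gave 12 columns, of which 0 were left unmatched to a sample. As the methods describe, tags were first placed by the authors on mouse mm9 and fly dm6, tags found in both were dropped, and the authors mapped the rest to coding sequences with at most 1 mismatch. The deposited values are log2 scores per transcript, which the authors made by scaling to aligned tags, by TMM from edgeR and, per the methods, by a further factor taken from the added fly cells. No source used here names the aligner. Low scores times coding length fell on steps (without the length, 28.6% to 38.2% of footprint values did), so the scores appear to be per length, less surely in total RNA, and were compared between genes without a second division by length, which had been planned. The share on whole reads was too low for a count test, and reads are estimates that carry no counting interval.

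Gene scores were means over the transcripts of a gene. For every measure a linear model was fitted with limma 3.58.1 (R 4.3.3; eBayes, trend on), with genotype as the only term, Benjamini-Hochberg over 11587 genes, threshold 0.05. Translation efficiency against the median gene was the mean over 6 livers with genotype as a sum-to-zero term. The reference by coding length was a running median over 501 genes among the 10851 with a length. Lists were described by counts and medians with no test. Nothing says that the mice came from separate litters, so p-values after centring measure the spread between these mice. On the deposited scale a gene's own spread did not enter its p-value in any of the 3 measures. Members, lists and the rule for naming (per mouse values for the 2 smallest p of each complex and measure, for isoforms and for the highest and lowest translation efficiency) were chosen with earlier results of these data known; other genes without overlap were named after their values were seen. The genotype fit was run on simulated total RNA and footprint scores, on the deposited scale and centred. Translation efficiency and the other settings were not simulated. Alternatives were centring, quantile normalization, a filter at the 0.25 quantile, the top transcript, other priors, 0.1 as the threshold, a block on replicate number, and leaving out each mouse. Added after seeing the data were leaving out KO1 and WT3 together, the length reference without WT3, the 33 liver subunits alone (Cox4nb left out with the planned exclusions of Atp5s, Atp5sl, Cox7a2l and Cox7a1), means without WT3, and the search for 28-base words of coding sequences in NCBIM37.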

Additional observations from a re-analysis of the deposited data

How the results depend on the processing

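Depth limits the values of Cox7a1 and Atp5s, with as few as 9 and 29 total RNA reads by estimate, the 9 in WT3, where that estimate is least sure. Genes passing in total RNA, footprints and translation efficiency numbered 32, 10 and 2 on the deposited scale. With libraries centred or by quantile normalization they were 2, 0 and 0, without low genes 21, 4 and 0, and without KO1 and WT3 (centred) 0, 0 and 0. In footprints a common prior gave 20 and a robust prior 4, in translation efficiency 9 and 1, and a threshold of 0.1 gave 6 there. Leaving out each mouse gave 1 to 30, 0 to 53 and 1 to 5, the fewest in total RNA and footprints without KO1 (1 and 0) and the most in footprints without WT3 (53). Centred, it gave 0 to 4, 0 to 0 and 0 to 0. The replicate number as a block gave 9, 292 and 3 genes, 1 member among them in footprints. Only 2 numbers are shared, and deviations of mice with the same number correlated by −0.10 to 0.27 (0.23 and 0.27 in total RNA). Mice with unlike numbers were not compared, so whether the numbers pair the mice was not settled.

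Leaving out each mouse moved the median difference of complexes III, IV and ATP synthase between −0.24 and −0.12, −0.19 and −0.13, and −0.20 and −0.14 in total RNA, −0.23 and 0.0037, −0.20 and −0.05, and −0.24 and −0.05 in footprints, and −0.01 and 0.17, −0.06 and 0.07, and −0.08 and 0.0789 in translation efficiency. Quantile normalization gave −0.0896 in complex IV total RNA. On the deposited scale the footprint median of complex III was −0.26, and the translation efficiency medians of complex III and ATP synthase were −0.11 and −0.15. The level of translation efficiency had medians of 0.87 to 1.00, 1.07 to 1.16 and 0.66 to 0.79 with each mouse left out, 8175 to 8485 genes past the threshold and 30 to 31 members above. Against genes of like length the medians were 0.54, 0.48 and 0.27 (without WT3 0.57, 0.42 and 0.30, with 20 members above). Members above 0 against the median gene and below 0 there were Cox7c (−0.58, and −0.61 without WT3), Uqcrh (−0.21 and −0.16) and Atp5h (−0.31 and −0.24). The others were Atp5j (−0.58 and −0.71), Cox7a2l (−0.63 and −0.61) and Atp5s (−0.43 and −0.42).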
